A study of Rattus norvegicus with 4 samples.

Results

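Drug-metabolizing enzymes of the rat lung are described here as the genes of 6 families. These are cytochromes P450 of families 1 to 4, flavin-containing monooxygenases, carboxylesterases, UDP-glucuronosyltransferases, sulfotransferases and glutathione S-transferases. The last are those of the alpha, mu, pi, theta, kappa and omega classes. All genes were chosen by symbol alone, and 108 of the 22050 genes listed are described (52, 7, 12, 5, 12 and 20 by family). Cyp2f4 matches the P450 pattern but is left out by the rule. Lung mRNA was sequenced from SD rats (Sprague-Dawley by the usual reading of that label) 28 days after 1 injection of 0.2 mL into the trachea. The 2 treated rats received bleomycin at 5 mg/kg, an antitumour drug that cuts DNA and, instilled into rodent airways, scars the lung. The 2 control rats received saline. Each library comes from 1 rat, so n = 2 per group throughout; the labels state neither age nor sex. The whole lung was taken, and a lung scarred by a single dose is a model of injury and repair rather than of a progressive disease.

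These enzymes act in steps. P450s and flavin monooxygenases put an oxygen atom on a drug, solvent or pollutant, taking electrons from NADPH, and carboxylesterases split ester bonds. Transferases then attach glucuronic acid, sulfate or glutathione, which makes the product easier to remove. The liver holds the widest set of them. In the lung they are known mainly from club cells of the small airways, alveolar type 2 cells and endothelium, where some of them also turn inhaled chemicals into toxic products.

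Of the 108 genes, 26 had no count in any of the 4 libraries and 29 had too few counts to be tested, which left 53. In bleomycin-treated lungs 13 of these 53 fell and 4 rose. The fall took in 3 of 5 tested flavin monooxygenases, 5 of 26 P450s, the main carboxylesterase Ces1d, the main sulfotransferase Sult1a1 and 3 of 14 glutathione S-transferases. The 4 that rose were Cyp1b1, Ugt1a1, Gsto1 and Gstm3. A gene was called where its p from the quasi-likelihood test of edgeR, adjusted by Benjamini-Hochberg over all 15709 tested genes, was under 0.05. By that rule 16.7% of all tested genes were called, 7.44% lower and 9.26% higher, against 32.1%, 24.5% and 7.55% of the 53 enzymes. The median log2 change, bleomycin over control, was -0.39 over the 53 enzymes and 0.01 over all tested genes. In whole lung, fewer cells of a type and less RNA per cell cannot be told apart. Without either one of the controls no enzyme was called by edgeR, although all 17 kept their sign and their adjusted p lay between 0.0583 and 0.201. With all 4 libraries DESeq2 called 5 higher and 16 lower enzymes, all 17 among them. Over all genes DESeq2 called 2065 higher and 1809 lower.

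**Figure D1:**
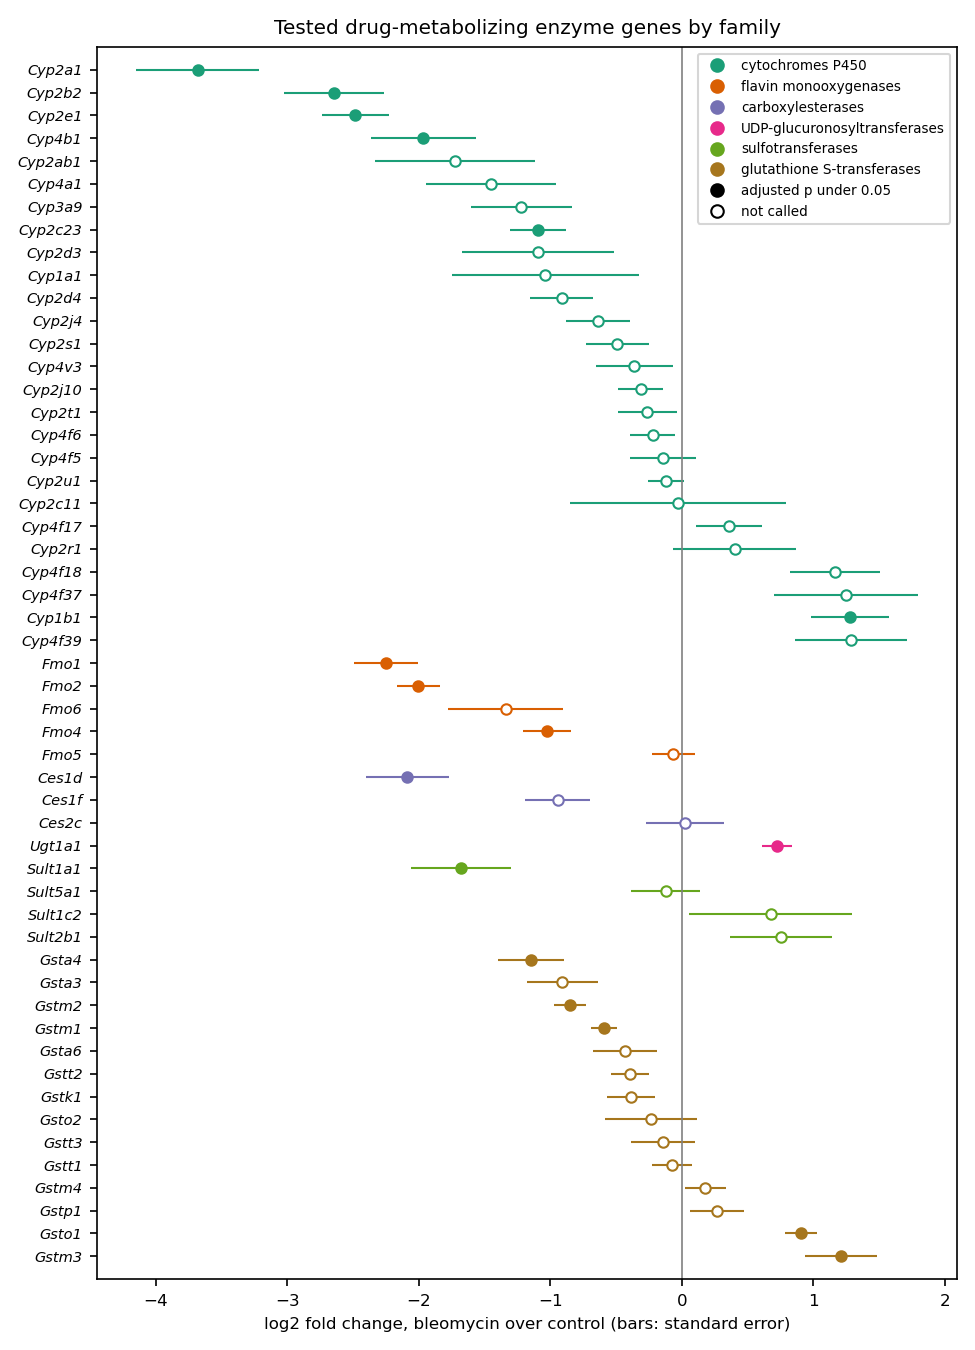
Log2 fold change (bleomycin over control) of the 53 tested enzyme genes, grouped by family, with standard errors as bars. Filled points passed an adjusted p of 0.05 by edgeR; 39 of the 53 points lie below 0 and 14 above it.

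The 2 bleomycin libraries lay below both controls for 29 of the 53 enzymes (54.7%; 33.4% of all tested genes) and above both for 10 (18.9%; 35.1% of all tested genes). Library totals ran from 39168063 to 44381111 counts in bleomycin and from 34683699 to 43533928 in control. Levels are given as CPM, a gene's counts scaled to a common library size, and 3 counts correspond to between 0.0681 and 0.0868 CPM. The tissue markers matched lung: Scgb1a1, the secretoglobin of club cells, had 1768 and 2181 CPM in bleomycin and 9530 and 10155 CPM in control. Alb, the liver's albumin, had no count in bleomycin and at most 0.463 CPM in control, and 4 of 8 hepatocyte markers had no count in each library. The single hepatocyte marker tested, Serpina1, fell, and the list summed to 16.2 and 10.5 CPM in bleomycin and 50.3 and 51.0 CPM in control; its part in the result was not tested. Heart muscle transcripts were highest in control replicate 1, where 6 of them summed to 195 CPM. The p-values rest on the spread between 2 rats per group. In edgeR each gene's spread is also drawn toward a trend over all tested genes. That trend had a median weight of 3.23 degrees of freedom, against 2 residual ones.

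Summed over a family, levels per length (FPKM, as the authors give them) showed the same split. Flavin monooxygenases summed to 104 and 126 FPKM in bleomycin and 500.2 and 415 FPKM in control, 3.98-fold lower. Carboxylesterases summed to 75.1 and 137 FPKM in bleomycin, against 443 and 442 FPKM in control, 4.16-fold lower. Sulfotransferases summed to 79.3 and 159 FPKM in bleomycin and 416 and 323 FPKM in control. P450s summed to 155 and 207 FPKM in bleomycin and 493 and 495 FPKM in control, 2.73-fold lower (2.42-fold as summed CPM). Glutathione S-transferases were closer, at 651 and 556 FPKM in bleomycin and 724 and 760 FPKM in control, and UDP-glucuronosyltransferases were higher, at 29.5 and 25.1 FPKM in bleomycin and 17.0 and 16.1 FPKM in control. These sums are dominated by a few genes and carry no test. The 3 highest P450s of each library held 45.9% and 63.2% of the P450 sum in bleomycin and 71.8% and 71.3% in control. That share was 64.0% to 71.6% for glutathione S-transferases and 96.5% to 98.6% for flavin monooxygenases. It was 98.7% to 99.9% for sulfotransferases and 99.79% to 99.97% for carboxylesterases. The lower sulfotransferase sum is that of Sult1a1: the 4 tested members had a median log2 change of 0.27, with 2 above both controls and 1 below.

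**Figure D2:**
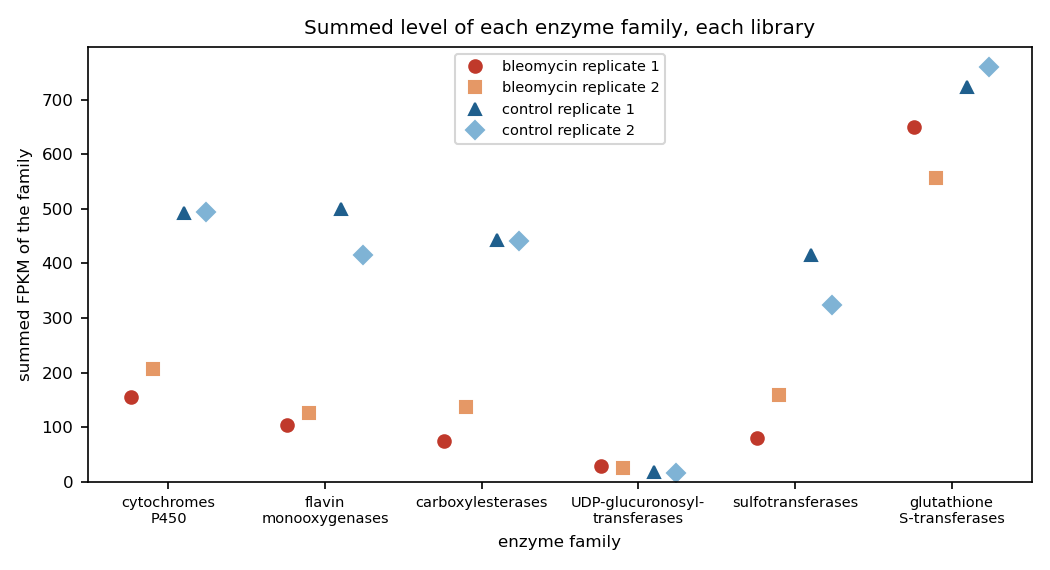
Summed FPKM of each enzyme family (vertical axis, linear from 0) in each of the 4 libraries, shown as separate symbols. Both bleomycin libraries lie below both controls in every family except the UDP-glucuronosyltransferases, where they lie above.

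The order of levels per length changed with it. In control lungs the 4 highest enzymes by mean FPKM were Ces1d (437 ± 1.48), Sult1a1 (365 ± 65.3), Fmo2 (335 ± 50.8) and Cyp4b1 (219 ± 18.3; SD, n = 2), of which Sult1a1 and Fmo2 did not differ beyond their spread. In bleomycin lungs the highest was Gstp1 at 212 ± 59.6 FPKM (SD, n = 2). By mean, Sult1a1 at 114 ± 57.4 and Ces1d at 103 ± 43.8 FPKM followed, but the order below Gstp1 differed between the treated lungs. In bleomycin replicate 1 Gstm2 (97.9 FPKM) and Fmo2 (77.9) stood above Sult1a1 (73.2) and Ces1d (71.6). In bleomycin replicate 2 Sult1a1 (154 FPKM) and Ces1d (134) stood above Fmo2 (89.7) and Gstm2 (80.9). Gstp1, the pi class transferase, stood at rank 6 in control. Its own level was 194 and 131 CPM in bleomycin and 128 and 142 CPM in control. The groups overlapped, and the log2 change was 0.27 ± 0.20 (SE; edgeR adjusted p = 0.391).

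Flavin monooxygenases, which oxidize soft nitrogen and sulfur atoms, gave the largest share of calls of any family with more than 1 tested gene, and none rose at an unadjusted p under 0.05 by edgeR or by DESeq2. Fmo2 (ENSRNOG00000003510) is the form known for its high level in mammalian lung, although laboratory rats make a shortened protein from it. It had 152 and 178 CPM in bleomycin and 734 and 588 CPM in control. Both treated lungs lay far below both controls, 4.01-fold lower (log2 change -2.00 ± 0.17 SE, edgeR adjusted p = 0.0102). Fmo1 (ENSRNOG00000034191), a form of broad substrate range, had 38.7 and 61.7 CPM in bleomycin and 251 and 226 CPM in control, 4.75-fold lower (edgeR adjusted p = 0.0142). Fmo4 (ENSRNOG00000003400) had 5.75 and 5.38 CPM in bleomycin, against 12.3 and 10.4 CPM in control, 2.04-fold lower. Fmo6 had 1.14 and 0.998 CPM in bleomycin and 3.56 and 1.86 CPM in control, and did not pass (edgeR adjusted p = 0.0942). Fmo5, a form that acts more on ketones than on nitrogen or sulfur, had 10.2 and 10.7 CPM in bleomycin and 11.8 and 10.1 CPM in control; its groups overlapped (log2 change -0.06 ± 0.16 SE).

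Among P450s the 5 that fell were Cyp2a1, Cyp2b2, Cyp2e1, Cyp4b1 and Cyp2c23. Cyp4b1 (ENSRNOG00000055078), a lung-enriched form that oxidizes fatty acids and activates the plant toxin ipomeanol, has the highest FPKM of the family here. It had 67.4 and 154 CPM in bleomycin and 459 and 405 CPM in control. The treated lungs differed from each other by more than the controls did, and both were below them, 3.90-fold lower (log2 change -1.96 ± 0.40 SE, edgeR adjusted p = 0.0352; 6.48-fold without bleomycin replicate 2). Cyp2a1 (ENSRNOG00000020817) showed the largest fall of all 53 enzymes. Its 18.1 and 7.42 CPM in bleomycin stood against 136 and 191 CPM in control, 12.8-fold lower (edgeR adjusted p = 0.0170; 22.1-fold without bleomycin replicate 1). The closely related Cyp2a3, the Cyp2a form known from rat lung and nose, is not analysed here, so which Cyp2a gene those reads came from is uncertain. Cyp2b2 (ENSRNOG00000020775), a form induced by phenobarbital in liver, had 4.41 and 9.57 CPM in bleomycin and 39.3 and 48.4 CPM in control, 6.26-fold lower (edgeR adjusted p = 0.0197; 10.1-fold without bleomycin replicate 2). Its near-identical partner Cyp2b1 is not analysed here, and reads of the pair may be shared. Cyp2e1 (ENSRNOG00000012458), which oxidizes ethanol and small solvents, had 4.86 and 7.37 CPM in bleomycin and 30.1 and 38.3 CPM in control, 5.59-fold lower (edgeR adjusted p = 0.0135). Cyp2c23 (ENSRNOG00000013291), an arachidonic acid epoxygenase known from rat kidney, had 3.34 and 4.22 CPM in bleomycin and 7.84 and 8.32 CPM in control, 2.14-fold lower.

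Cyp1b1 (ENSRNOG00000040287) went the other way. This dioxin-inducible P450 oxidizes polycyclic hydrocarbons and oestradiol and is known from mesenchymal cells. It had 39.96 and 23.8 CPM in bleomycin and 15.1 and 11.2 CPM in control, 2.42-fold higher (log2 change 1.28 ± 0.29 SE, edgeR adjusted p = 0.0461, or 0.0635 without bleomycin replicate 1). Cyp1a1 (ENSRNOG00000019500), the best known target of the aryl hydrocarbon receptor AHR, had 1.90 and 4.20 CPM in bleomycin and 2.61 and 9.90 CPM in control. Its groups overlapped and the controls differed widely, so no difference was detectable (edgeR adjusted p = 0.345). Fibroblast markers moved with Cyp1b1: 5 of 8 rose and none fell by edgeR, and the list summed to between 3423 and 7682 CPM in bleomycin and between 1087 and 1204 CPM in control. Their part in the result was not tested.

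The other 20 tested P450s did not pass, with log2 changes from -1.72 for Cyp2ab1 to 1.29 for Cyp4f39. Cyp2s1, a form found mostly outside the liver, had 33.3 and 54.8 CPM in bleomycin and 61.9 CPM in each control (edgeR adjusted p = 0.205). It was 1.40-fold lower with all libraries, 1.88-fold without bleomycin replicate 2 and 1.13-fold without bleomycin replicate 1. Among members of the fatty acid hydroxylase group Cyp4f, Cyp4f18, which in mice inactivates leukotriene B4 in neutrophils, had 14.99 and 7.87 CPM in bleomycin and 4.83 and 5.36 CPM in control (edgeR adjusted p = 0.0759; DESeq2 adjusted p = 0.0127). Cyp4f6 had 15.5 and 19.2 CPM in bleomycin and 18.4 and 22.1 CPM in control and overlapped. Cyp2u1, a fatty acid hydroxylase, stood at 12.1 and 12.4 CPM in bleomycin and 13.1 and 13.5 CPM in control. Several P450s known from rat liver were not detected: Cyp2c7, Cyp2c12, Cyp2c13, Cyp2d2, Cyp2d5 and Cyp3a23/3a1 had no count in any library. A zero count allows a level of up to 3 counts, or 0.0868 CPM in the shallowest library.

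**Figure D3:**
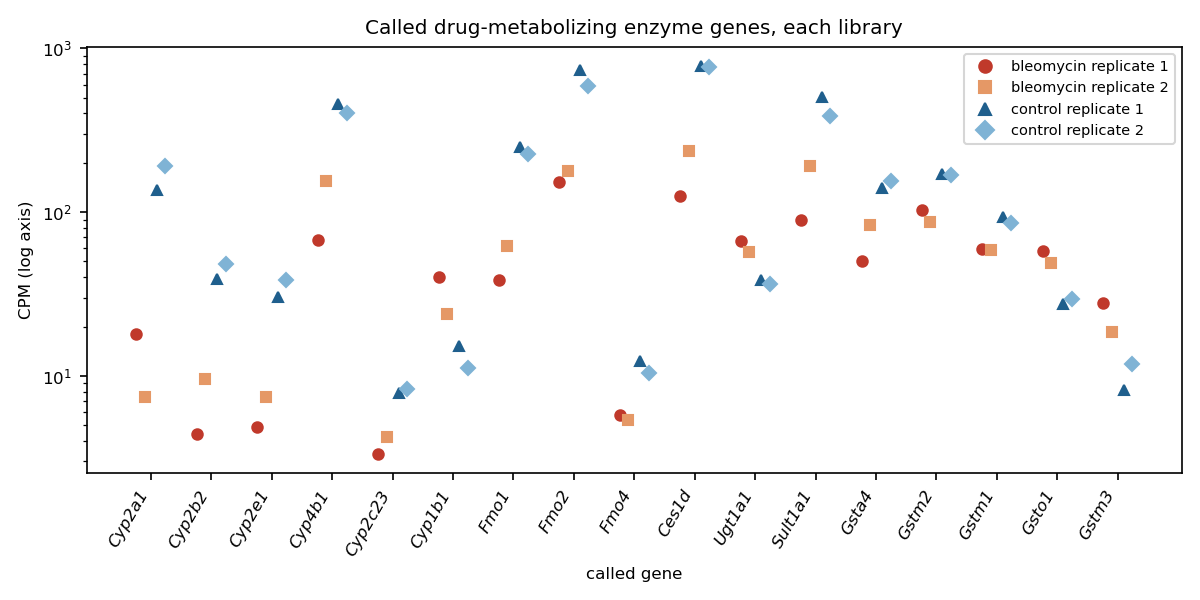
CPM of the 17 called enzyme genes (log axis) in each library, by family from left to right. The 2 bleomycin symbols lie below the 2 control symbols for 13 genes and above them for Cyp1b1, Ugt1a1, Gsto1 and Gstm3.

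Carboxylesterases rested on a single gene. Ces1d (ENSRNOG00000015519), which hydrolyses ester drugs and stored triacylglycerol, had 125 and 237 CPM in bleomycin and 776 and 767 CPM in control. The controls were nearly equal and the treated lungs were 4.25-fold lower (log2 change -2.09 ± 0.32 SE, edgeR adjusted p = 0.0214). Ces1f, of the same subfamily, had 3.37 and 3.99 CPM in bleomycin and 6.08 and 8.09 CPM in control and missed the threshold by edgeR (adjusted p = 0.0582), not by DESeq2 (adjusted p = 0.0227). Ces2c had 2.30 and 2.36 CPM in bleomycin and 2.58 and 2.02 CPM in control. Of the other 9 carboxylesterases, 5 had no count and 4 stayed below the filter.

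Promoters were searched because several enzymes fell together, and those printed are the ones of enzymes that fell and held a core of C/EBP sites, with Cyp1b1 as a riser. RefSeq promoter sequences (GRCr8, 250 bases before to 50 after the start, matched by symbol) were found for 45 of the 53 tested enzymes and for 16 of the 17 called ones. They were searched on both strands for TTGCNNAA, a core of C/EBP sites, for GCGTG, the core of AHR sites, and for TGACNNNGC, the core of antioxidant response elements bound by NRF2. TTGCNNAA was present for 6 of 12 enzymes that fell, 0 of 4 that rose, 2 of 29 that were not called and in 10.6% of all 33469 promoters. Enzymes were counted by gene and the background by promoter, whether or not its gene was tested. GCGTG was present in 3 of 12, 1 of 4 and 12 of 29, against 29.7% of all promoters, and TGACNNNGC in 1 of 12, 0 of 4 and 5 of 29, against 12.1%. The 6 promoters with TTGCNNAA lie at chr13:77747617-77747916 and chr13:77777485-77777784 on the minus strand, chr1:90722031-90722330 and chr1:205269717-205270016 on the plus strand, chr19:30046244-30046543 on the plus strand and chr2:198316868-198317167 on the minus strand. Capitals mark TTGCNNAA or its reverse complement, and each sequence runs 5′ to 3′ along its gene:
Fmo1: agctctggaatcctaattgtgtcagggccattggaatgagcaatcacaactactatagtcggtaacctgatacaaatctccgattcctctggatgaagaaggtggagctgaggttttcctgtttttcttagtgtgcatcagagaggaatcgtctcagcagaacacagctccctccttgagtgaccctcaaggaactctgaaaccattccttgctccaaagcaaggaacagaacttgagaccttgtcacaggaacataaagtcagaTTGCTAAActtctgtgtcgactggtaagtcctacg
Fmo2: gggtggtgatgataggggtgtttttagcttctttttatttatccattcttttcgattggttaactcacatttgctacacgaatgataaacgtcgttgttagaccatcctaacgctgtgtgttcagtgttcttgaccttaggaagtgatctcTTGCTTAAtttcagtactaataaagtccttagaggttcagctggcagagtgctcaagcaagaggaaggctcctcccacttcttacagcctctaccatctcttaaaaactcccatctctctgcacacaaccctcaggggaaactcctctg
Cyp2b2: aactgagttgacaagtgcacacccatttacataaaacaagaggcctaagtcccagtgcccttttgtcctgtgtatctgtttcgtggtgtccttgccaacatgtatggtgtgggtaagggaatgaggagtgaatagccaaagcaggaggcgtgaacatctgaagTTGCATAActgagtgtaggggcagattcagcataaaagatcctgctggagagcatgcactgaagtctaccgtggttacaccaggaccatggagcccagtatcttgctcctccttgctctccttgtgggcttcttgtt
Cyp2e1: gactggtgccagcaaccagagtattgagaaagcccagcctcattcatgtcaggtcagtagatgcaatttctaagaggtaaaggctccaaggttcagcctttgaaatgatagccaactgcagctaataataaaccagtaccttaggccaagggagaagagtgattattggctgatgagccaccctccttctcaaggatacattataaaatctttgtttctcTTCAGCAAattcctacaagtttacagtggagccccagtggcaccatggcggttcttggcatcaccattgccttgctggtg
Ces1d: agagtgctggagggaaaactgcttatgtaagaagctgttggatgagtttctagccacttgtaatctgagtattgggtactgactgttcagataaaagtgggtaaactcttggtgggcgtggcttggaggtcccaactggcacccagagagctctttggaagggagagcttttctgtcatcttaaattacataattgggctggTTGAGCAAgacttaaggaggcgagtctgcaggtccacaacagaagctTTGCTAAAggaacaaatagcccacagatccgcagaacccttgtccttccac
Gstm2: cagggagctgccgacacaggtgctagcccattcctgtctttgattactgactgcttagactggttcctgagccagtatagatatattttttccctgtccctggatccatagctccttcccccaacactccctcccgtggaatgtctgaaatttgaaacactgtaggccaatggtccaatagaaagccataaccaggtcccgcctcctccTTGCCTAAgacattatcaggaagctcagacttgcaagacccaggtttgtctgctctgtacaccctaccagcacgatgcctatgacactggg

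The match began 99 bases before the start in Fmo2, 87 before in Cyp2b2, 41 before in Gstm2 and 30 before in Cyp2e1, and 16 bases after it in Fmo1. Ces1d held it at 48 bases and at 1 base before the start. For Cyp1b1 the promoter (chr6:21094315-21094614, plus strand) is shown with GCGTG or its reverse complement in capitals, at 81 and 20 bases before the start:
Cyp1b1: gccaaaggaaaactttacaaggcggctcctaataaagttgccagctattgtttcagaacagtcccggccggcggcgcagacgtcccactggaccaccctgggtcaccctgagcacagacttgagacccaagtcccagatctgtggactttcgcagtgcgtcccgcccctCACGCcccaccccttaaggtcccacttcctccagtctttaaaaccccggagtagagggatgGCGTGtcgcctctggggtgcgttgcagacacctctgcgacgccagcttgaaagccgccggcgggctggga
These matches describe letters within 300 bases of a start in another build than that of the files, and the motifs were picked with the changes known. GCGTG is not particular to Cyp1b1. It also lies, without capitals, in the Ces1d and Cyp2b2 promoters printed above, and in that of Gsta4, which is not printed. All of these enzymes fell.

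Among conjugating enzymes the sulfotransferase and the glucuronosyltransferase moved apart. Sult1a1 (ENSRNOG00000019342), the phenol sulfotransferase, had 88.8 and 190 CPM in bleomycin and 505 and 389 CPM in control. It was 3.20-fold lower (log2 change -1.68 ± 0.38 SE, edgeR adjusted p = 0.0447; 5.08-fold without bleomycin replicate 2), and lost the call when low genes were kept in (adjusted p = 0.0568). The 3 other tested sulfotransferases did not pass. Sult2b1, which sulfates cholesterol, had 2.08 and 2.43 CPM in bleomycin and 1.01 and 1.65 CPM in control, and Sult5a1 overlapped at 4.61 and 3.33 CPM in bleomycin and 4.60 and 4.06 CPM in control. Ugt1a1 (ENSRNOG00000018740), the bilirubin glucuronosyltransferase, was the single tested member of its family. It had 66.1 and 57.0 CPM in bleomycin and 38.6 and 36.1 CPM in control, 1.65-fold higher (log2 change 0.72 ± 0.11 SE, edgeR adjusted p = 0.0226). The rat Ugt1a forms share all but their first exon, so this row may hold reads of other Ugt1a forms. Of the 4 Ugt2 genes, 2 had no count and 2 stayed below the filter.

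Of 14 tested glutathione S-transferases 3 fell, 2 rose and 9 did not pass. Over all tested genes the shares were 7.44% lower and 9.26% higher. Gsta4 (ENSRNOG00000030449), an alpha class enzyme that conjugates the lipid peroxidation product hydroxynonenal, had 49.99 and 82.8 CPM in bleomycin and 141 and 154 CPM in control, 2.22-fold lower (edgeR adjusted p = 0.0412). Gstm2 (ENSRNOG00000018937), of the mu class, had 103 and 86.4 CPM in bleomycin and 172 and 169 CPM in control, 1.802-fold lower (edgeR adjusted p = 0.0196). Gstm1 (ENSRNOG00000029726) had 59.7 and 58.8 CPM in bleomycin and 93.6 and 85.4 CPM in control, 1.51-fold lower (edgeR adjusted p = 0.0246). In contrast Gsto1 (ENSRNOG00000028746), the omega class enzyme that reduces dehydroascorbate and arsenic compounds, had 57.6 and 49.1 CPM in bleomycin and 27.5 and 29.3 CPM in control. Both treated lungs lay above both controls, 1.88-fold higher (log2 change 0.91 ± 0.12 SE, edgeR adjusted p = 0.0176). Gstm3 (ENSRNOG00000049743) had 27.9 and 18.6 CPM in bleomycin and 8.22 and 11.8 CPM in control, 2.31-fold higher (edgeR adjusted p = 0.0450, or 0.0860 without bleomycin replicate 1). RefSeq also lists Gstm3 as an older name of other mu class genes, so which gene the symbol stands for is uncertain. Mu class genes are near-identical in parts, and with all Gstm counts added up the class was lower, at 215 and 183 CPM in bleomycin and 293 and 285 CPM in control (log2 change -0.54 ± 0.12 SE, edgeR adjusted p = 0.0446). Gsta3 had 2.15 and 2.88 CPM in bleomycin and 4.49 and 4.97 CPM in control (edgeR adjusted p = 0.0765). The theta class Gstt1 stood at 11.9 and 14.0 CPM in bleomycin and 13.6 and 13.7 CPM in control, and Gstk1, of mitochondria and peroxisomes, at 10.8 and 8.48 CPM in bleomycin and 12.9 and 12.3 CPM in control; neither passed.

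With paralogs of a subfamily added up, 32 subfamilies were tested, of which 11 were lower and 3 higher by edgeR. With genes counted singly, 7.44% of all tested genes were lower and 9.26% higher. All 17 called enzymes belonged to a called subfamily, and Gstm3 was the one whose subfamily moved against it. That match is partly built in and is no separate support. Cyp1b, Cyp2a, Cyp2e, Cyp4b, Sult1a and Ugt1a hold 1 gene each here, and all flavin monooxygenases were summed as 1 subfamily. Among the 29 enzymes below the filter, Cyp2g1, known from the olfactory lining, had 6 and 14 counts in control and none in bleomycin. Ces2g and Gsta5 each had 10 and 4 counts in bleomycin and none in control, and Sult1b1 had 9 and 3 counts in bleomycin and none in control. Gstm6l had 22 counts, all in bleomycin replicate 1. These 5 genes, and the enzymes named above that were not called (other than Cyp1a1, Cyp2s1, Gstp1, Gsta3 and Gstt1), were named after their values were seen, and the 5 carry no test.

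Lists of genes that supply, regulate or accompany the enzymes were counted by the same test. By that test 7.44% of all tested genes were lower and 9.26% higher. A list with 1 call in a direction is not read as a result about that list. Of 10 electron donors and genes of haem supply, 2 fell and 1 rose. Por (ENSRNOG00000001442), the reductase that passes electrons to every microsomal P450, had 182 and 213 CPM in bleomycin and 350 and 371 CPM in control, 1.83-fold lower (edgeR adjusted p = 0.0196). Cyb5r3 (ENSRNOG00000009592), which reduces cytochrome b5, had 218 and 241 CPM in bleomycin and 434 and 432 CPM in control, 1.89-fold lower (edgeR adjusted p = 0.0160). Hmox1 (named after its values were seen), which breaks haem down, had 318 and 142 CPM in bleomycin and 38.0 and 44.9 CPM in control, 5.55-fold higher (edgeR adjusted p = 0.0238; 3.42-fold without bleomycin replicate 1). Of 11 tested regulators, 1 fell and none rose, while DESeq2 gave 1 in each direction and edgeR 1 higher and 3 lower at an unadjusted p under 0.05. Tiparp (ENSRNOG00000011238), an AHR target that represses the receptor, had 20.4 and 21.8 CPM in bleomycin and 31.6 and 33.7 CPM in control, 1.55-fold lower (edgeR adjusted p = 0.0280). Nfe2l2 (ENSRNOG00000001548), which encodes NRF2, had 177 and 176 CPM in bleomycin and 130 and 142 CPM in control and did not pass by edgeR (adjusted p = 0.0637; DESeq2 adjusted p = 0.0334). Ahr itself overlapped, at 80.7 and 106 CPM in bleomycin and 105 and 81.1 CPM in control.

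Of 28 other oxidizing, reducing and hydrolysing enzymes, 6 fell and none rose by edgeR (2 higher at an unadjusted p under 0.05, and 0 by DESeq2). Aldh3a1 (ENSRNOG00000002331), an aldehyde dehydrogenase of exposed epithelia, had 2.63 and 2.77 CPM in bleomycin and 11.9 and 10.97 CPM in control, 4.24-fold lower (edgeR adjusted p = 0.0112). Pon1 (ENSRNOG00000008902), the organophosphate-splitting paraoxonase, had 1.22 and 1.72 CPM in bleomycin and 10.3 and 13.7 CPM in control, 8.16-fold lower (edgeR adjusted p = 0.0125). Akr1a1, an aldehyde reductase and the most abundant of this list, had 618 and 525 CPM in bleomycin and 480 and 507 CPM in control (edgeR adjusted p = 0.307). Of 15 tested genes of other conjugation and cofactor supply, 4 rose and none fell by edgeR, while 3 were lower at an unadjusted p under 0.05 and 1 by DESeq2. Ugdh (ENSRNOG00000002643) makes the UDP-glucuronic acid that UDP-glucuronosyltransferases use and that hyaluronan synthesis also uses. It had 87.4 and 76.4 CPM in bleomycin and 32.2 and 32.6 CPM in control, 2.53-fold higher (edgeR adjusted p = 0.0102). Nnmt (ENSRNOG00000005930), which methylates nicotinamide, had 7.98 and 6.67 CPM in bleomycin and 2.23 and 2.68 CPM in control, 2.98-fold higher. Mgst1, the microsomal glutathione transferase, had 146 and 166 CPM in bleomycin and 176 and 189 CPM in control and did not pass. Of 14 tested drug transporters, 2 fell and 1 rose. Slco3a1 had 53.3 and 64.1 CPM in bleomycin and 135 and 109 CPM in control, 2.08-fold lower, and the prostaglandin carrier Slco2a1 had 323 and 440 CPM in bleomycin and 1000.1 and 732 CPM in control, 2.27-fold lower (edgeR adjusted p = 0.0323, or 0.0615 without bleomycin replicate 1).

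**Figure D4:**
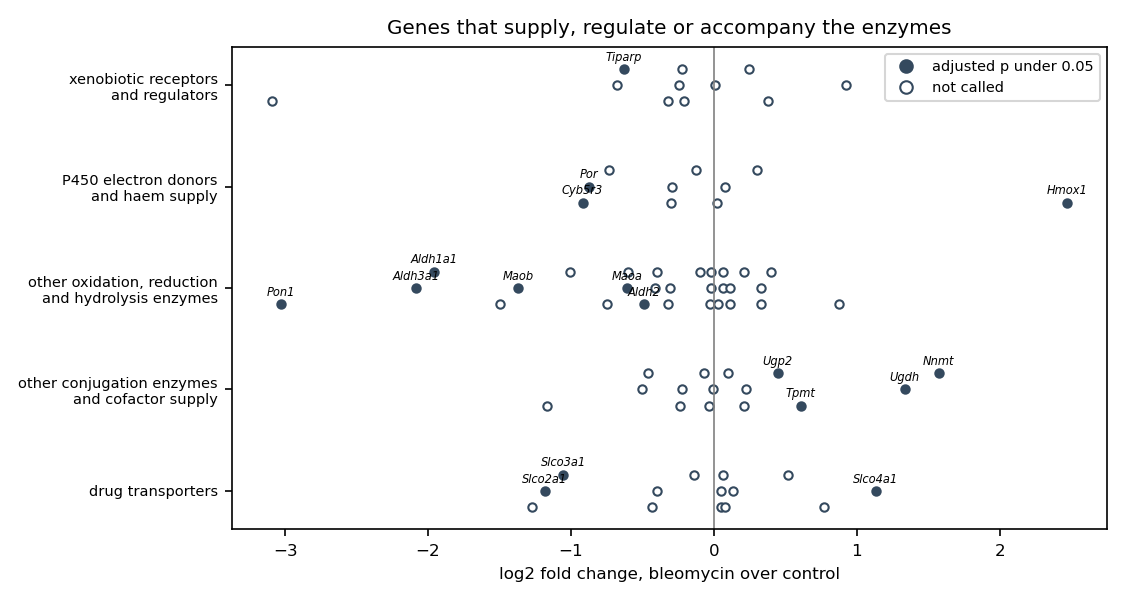
Log2 fold change (bleomycin over control, horizontal axis) of the tested genes in 5 lists of regulators, electron donors, other enzymes and transporters; vertical offsets within a list only separate points. Filled, named points passed an adjusted p of 0.05 by edgeR, 11 below 0 and 6 above it.

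Cell type markers were counted by the same test, by which 7.44% of all tested genes were lower and 9.26% higher. Of 7 tested club cell markers 1 fell, Scgb1a1, 4.99-fold, and 1 rose, the lectin Reg3g (not called by edgeR without bleomycin replicate 1 or 2, adjusted p = 0.0575 and 0.113, nor by DESeq2), and the list summed to between 2391 and 2554 CPM in bleomycin and between 9953 and 10491 CPM in control. Scgb1a1 made up most of that sum, and the other 7 club cell genes overlapped, at 787 and 210.03 CPM in bleomycin and 423 and 336 CPM in control. All 8 alveolar type 1 markers fell, as did 4 of 7 tested endothelial and 6 of 7 tested ciliated cell markers. Endothelial markers summed to between 1813 and 2493 CPM in bleomycin and between 4515 and 5130.3 CPM in control. None of 10 alveolar type 2 markers passed by edgeR (3 were lower at an unadjusted p under 0.05, and 3 by DESeq2), with sums of 19813 to 31838 CPM in bleomycin and 33555 to 33565 CPM in control. Of 8 macrophage markers 4 rose and none fell by edgeR, beside the rise of Gsto1, and their sums overlapped, at 10914 to 16481 CPM in bleomycin and 15169.9 to 15339.8 CPM in control. The part of these cell markers in the changes of the enzymes was not tested.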

How the data were processed

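Lung mRNA of 4 rats was selected with oligo(dT) and sequenced; no step that keeps strand is described, so antisense partners cannot be told apart. Per the submitters' processing notes the build was Rnor_6.0 and the tools included StringTie 1.3.1, DESeq2, HISAT2, fastp 0.18.0 and CASAVA 1.8. The deposited tables give whole-number read counts per gene, and the authors also give FPKM per gene. Counts were tested with edgeR 4.0.16 (TMM scaling, quasi-likelihood test, R 4.3.3) on genes with about 10 counts at median depth (0.242 CPM) in at least 2 libraries and 15 in total, with 2 residual degrees of freedom. Zero-count limits and depth cover counting error only. FPKM was used for levels between genes and for the family sums, with no test. No library was a copy of its replicate (chi-square of counts per degree of freedom 96.7 for bleomycin and 22.6 for control). The enzymes, accompanying lists, markers and motifs were chosen with earlier results of these data known. Named genes are every called enzyme, the highest and most significant of each family, a panel of known enzymes, and from each accompanying list the 2 smallest p-values and the highest level. Results for 1 gene are not reported here. Cyp2b1 and Gsta1 of the panel were not found under their symbols and are not analysed here. Alternatives were DESeq2 1.42.0, its size factors in edgeR, no filter, a replicate block, summed paralogs and each replicate left out. The scripts were tested on simulated data.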

Additional observations from a re-analysis of the deposited data

How the results depend on the processing

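With n = 2 the calls rest on both controls. Leaving out 1 replicate gave 13 to 2569 higher and 8 to 2573 lower genes over all genes, against 1455 and 1169, and 0 to 7 higher and 0 to 18 lower enzymes, against 4 and 13. Without bleomycin replicate 1 the enzymes gave 2 and 13, without bleomycin replicate 2 they gave 7 and 18, and without control replicate 1 or control replicate 2 they gave 0 and 0. By family these ranges were 0 to 3 higher and 0 to 8 lower P450s, 0 to 3 lower flavin monooxygenases, 0 to 2 lower carboxylesterases, 0 to 1 higher UDP-glucuronosyltransferases, 0 to 1 lower sulfotransferases, and 0 to 3 higher and 0 to 4 lower glutathione S-transferases. The group left with 1 library is assumed to vary like the other. DESeq2 called 2065 higher and 1809 lower genes, with 2 higher P450s and 2 lower carboxylesterases. Without the filter no sulfotransferase was called lower (0). Over all tested genes the replicate numbers showed no pairing of the rats (correlation of deviations between same-numbered libraries -0.0218). With 2 libraries per group this value cannot exclude pairing for a part of the genes. With the replicate block 1225 and 1026 genes and 3 and 12 enzymes were called higher and lower. The block left 0 lower sulfotransferases (Sult1a1, edgeR adjusted p = 0.0682) and 1 higher glutathione S-transferase (Gstm3 lost its call, adjusted p = 0.0636). With paralogs added up, 23 enzymes lay in lower subfamilies (8 P450s, 5 flavin monooxygenases, 2 carboxylesterases, 7 glutathione S-transferases), and Gstm3 turned to -0.54. With 1 replicate left out the log2 change of Cyp1a1 ran from -1.74 to 0.23, above 0 without control replicate 2, that of Gstp1 from -0.043 to 0.51 and that of Gstt1 from -0.21 to 0.032, both of opposite sign without bleomycin replicate 1. The cause of these shifts was not tested. DESeq2's size factors in edgeR gave 4 and 13 enzymes.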
